A study of Mus musculus with 9 samples.

Results

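A set of 10 genes of the blood-forming system were followed across mouse embryonic stem cells (ESCs) and cell lines re-derived from transplanted ESCs. They are the transcription factor genes Runx1, Ebf1, Spi1 (named Sfpi1 on the array), Tal1, Gata1 and Gata2, the cofactor gene Lmo2, and the leukocyte genes Ptprc, Ptpn6 and Laptm5. They were picked by gene symbol, with the probe set of highest mean over the 9 arrays standing for each gene and both probe sets of Ebf1 shown. They make up 10 of the 22319 genes named on the array, and 11 of its 28853 probe sets. Of these, Runx1, Ebf1, Ptpn6 and Laptm5 were already known to change in these data when the list was drawn up, so their values describe the choice and are no independent support for it.

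The D10 and D5 lines were grown from green cells sorted out of the bone marrow of mice that had received the ESCs. The D10 line was taken at day 10 after transplantation and the D5 line at day 5, and the series text names D10 "Sorted" and D5 "No.2". The ESC line came from blastocysts of C57BL/6×Oct4/EGFP transgenic OG2 mice, and all 3 groups share that Oct4/EGFP transgene, which marks pluripotent cells with green fluorescence. Every group was cultured over feeder cells and was measured on 3 arrays. Sample titles call the arrays of each group biological replicates of "cell lines" and do not say whether these are separate derivations. Each group is called 1 line here, and p-values may rest only on variation among samples of 1 line. The transplanted mice are not described further in the labels. D10 replicates 1 and 3 stood apart from the other pairs: across 8292 probe sets whose mean exceeded 6 on the log2 scale they differed by an SD of 0.0686, while the 8 further same-group pairs had SDs of 0.154 to 0.201. The cause was not tested. These replicates were counted as 1 sample, so that means of D10 have n = 2. All 10 genes of a pluripotency list (Pou5f1, Nanog, Sox2 and others) were above background in their mean over the arrays. Summed on the linear scale, their signal was 8477 to 8675 on the D10 arrays, 8753 to 9350 on the D5 arrays and 11363 to 11953 on the ESC arrays.

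Blood cells arise in steps that are set by a small group of transcription factors. Runx1, with its partner Cbfb, is needed for blood stem cells to emerge from haemogenic endothelium. Tal1, Lmo2 and Gata1 or Gata2 form a complex that drives erythroid and stem cell genes, while Spi1 (PU.1) drives myeloid and Ebf1 B lymphoid genes. Ptprc (CD45) is a phosphatase on the surface of nearly all nucleated blood cells, Ptpn6 (SHP-1) is a phosphatase that damps signalling in them, and Laptm5 is a lysosomal membrane protein that lowers antigen receptors in lymphocytes. The lines came out of bone marrow, which is rich in these cells. The question was whether the lines differ from ESCs in these genes and whether any trace of marrow cells is seen.

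The start regions of the 4 genes that differed from ESCs are shown because Runx1 and Ebf1 were higher in the re-derived lines, while Ptpn6 and Laptm5 were lower. RefSeq's table of mouse start regions (GRCm38.p6) gave 13 windows for 8 of the 10 genes, each with 250 bases before and 50 after a start. Spi1 and Lmo2 have no window shown. Capitals mark matches on either strand to the core letters bound by RUNX proteins (letters TGTGGT), by GATA proteins (letters AGATAA), by ETS proteins (letters AGGAAGT), by EBF proteins (letters CCCNNGGG) or to an E-box of Tal1 type (letters CAGATG). The windows of Runx1 are on the minus strand at chr16:92826025-92826324 for the upstream start and chr16:92697280-92697579 for the downstream start. Those of Ebf1 are on the plus strand at chr11:44617850-44618149 and chr11:44619978-44620277. Those of Ptpn6 and Laptm5 are at chr6:124738660-124738959 on the minus strand and chr4:130913066-130913365 on the plus strand.
Runx1 upstream start: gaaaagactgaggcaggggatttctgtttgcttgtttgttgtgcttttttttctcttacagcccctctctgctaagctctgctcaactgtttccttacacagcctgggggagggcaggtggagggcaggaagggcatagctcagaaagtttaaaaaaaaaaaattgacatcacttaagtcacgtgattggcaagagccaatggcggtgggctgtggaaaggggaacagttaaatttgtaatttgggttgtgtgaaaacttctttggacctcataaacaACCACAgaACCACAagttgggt
Runx1 downstream start: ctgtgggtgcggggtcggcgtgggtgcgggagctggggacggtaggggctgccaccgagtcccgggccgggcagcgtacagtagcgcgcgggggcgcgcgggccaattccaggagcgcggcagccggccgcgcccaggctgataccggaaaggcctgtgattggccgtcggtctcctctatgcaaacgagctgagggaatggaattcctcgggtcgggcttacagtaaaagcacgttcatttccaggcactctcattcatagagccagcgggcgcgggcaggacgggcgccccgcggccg
Ebf1 upstream start: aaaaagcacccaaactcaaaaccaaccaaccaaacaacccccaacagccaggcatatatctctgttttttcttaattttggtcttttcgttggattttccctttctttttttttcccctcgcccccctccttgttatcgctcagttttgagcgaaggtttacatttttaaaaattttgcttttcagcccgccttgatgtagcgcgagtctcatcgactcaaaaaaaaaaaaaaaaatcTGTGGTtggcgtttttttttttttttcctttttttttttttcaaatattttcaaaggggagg
Ebf1 downstream start: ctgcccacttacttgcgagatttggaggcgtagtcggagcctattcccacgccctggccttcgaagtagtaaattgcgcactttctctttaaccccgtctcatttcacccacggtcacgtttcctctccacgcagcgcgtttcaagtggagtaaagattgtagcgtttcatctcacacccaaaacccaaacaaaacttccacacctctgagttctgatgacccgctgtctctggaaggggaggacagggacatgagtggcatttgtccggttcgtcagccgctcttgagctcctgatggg
Ptpn6 start: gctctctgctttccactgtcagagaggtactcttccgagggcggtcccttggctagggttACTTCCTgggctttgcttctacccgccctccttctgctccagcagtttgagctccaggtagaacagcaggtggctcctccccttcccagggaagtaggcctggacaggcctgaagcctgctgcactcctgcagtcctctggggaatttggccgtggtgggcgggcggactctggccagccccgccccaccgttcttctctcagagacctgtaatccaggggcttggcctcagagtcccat
Laptm5 start: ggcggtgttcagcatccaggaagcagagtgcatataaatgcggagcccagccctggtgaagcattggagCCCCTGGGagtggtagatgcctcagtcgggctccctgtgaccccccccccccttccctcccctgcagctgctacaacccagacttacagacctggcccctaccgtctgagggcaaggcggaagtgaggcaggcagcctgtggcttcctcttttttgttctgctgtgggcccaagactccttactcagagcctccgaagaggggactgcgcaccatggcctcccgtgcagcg
The upstream window of Runx1 held 2 RUNX cores next to each other near its end, and that of Ebf1 held 1. Over all 32851 windows of this length, 16.8% held a RUNX core, 11.2% a GATA core, 9.35% an ETS core, 13.7% the EBF core letters and 17.2% the E-box. The Ptpn6 window held 1 ETS core and the Laptm5 window 1 EBF core. The downstream windows of Runx1 and Ebf1 held none of these motifs, and no match overlapped another in the 6 windows shown. These matches describe letters in the windows and say nothing of factors bound there.

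Signals are given on the log2 scale as deposited. A level of 3.68 served as background, the 95th percentile of 1397 probe sets for olfactory and vomeronasal receptors, which these cells are not known to use. 7 of the 10 genes were above it in their mean over the 9 arrays, while Spi1, Gata1 and Ptprc were below it. Signals are not compared between genes, since probe sets differ in brightness.

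Runx1, on chromosome 16, had signals of 5.59, 5.62 and 5.52 on the D10 arrays, 5.03, 4.92 and 5.05 on the D5 arrays, and 4.36, 4.36 and 4.33 on the ESC arrays. All D10 arrays lay above all D5 arrays, which in turn lay above all ESC arrays. Its mean was 5.58 ± 0.05 in D10 (SD, n = 2), 5.00 ± 0.07 in D5 and 4.35 ± 0.02 in ESC (SD, n = 3 each). The log2 change against ESC was 1.23 in D10, which is 2.35-fold (SE 0.09, limma adjusted p = 1.45e-04). In D5 it was 0.65, or 1.57-fold (SE 0.08, limma adjusted p = 0.00306). Runx1 was also higher in D10 than in D5, by 0.59 on the log2 scale (SE 0.09, limma adjusted p = 0.0466). This last call held in 6 of 18 alternatives, whose adjusted p ranged between 0.00802 and 0.224, and it was lost on leaving out any single array other than D10 replicate 3 (0.0571 to 0.216). In bulk RNA, more cells of a type and more RNA per cell cannot be told apart, and the same holds for fewer and less.

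Ebf1, on chromosome 11, showed the same order of groups. Its brighter probe set read 6.17, 5.99 and 6.14 on the D10 arrays, 5.35, 5.69 and 5.30 on the D5 arrays, and 4.67, 4.36 and 4.47 on the ESC arrays. Again no array of a group reached into the next. The mean was 6.07 ± 0.12 in D10 (SD, n = 2), 5.45 ± 0.21 in D5 and 4.50 ± 0.16 in ESC (SD, n = 3 each). Ebf1 rose 2.97-fold in D10 against ESC (log2 1.57, SE 0.14, limma adjusted p = 4.28e-04). It rose 1.93-fold in D5 against ESC (log2 0.95, SE 0.13, limma adjusted p = 0.00608). D10 minus D5 was 0.62 with a 95% interval of 0.29 to 0.95 (limma adjusted p = 0.155), so this difference was not called, and it was called only with the 9 arrays counted separately (0.0345). The dimmer probe set of Ebf1 had 4.82, 4.70 and 4.84 on the D10 arrays, 4.40 on each D5 array, and 4.08, 3.56 and 3.89 on the ESC arrays. It ordered the groups as the brighter one did. Its change was 0.92 in D10 against ESC (SE 0.14, limma adjusted p = 0.00518) and 0.55 in D5 against ESC (SE 0.13, limma adjusted p = 0.0504, lowest 0.0290 among its alternatives). Equal values on 3 arrays of a group, as in D5 here, occurred in 3.95% of all probe sets.

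**Figure D1:**
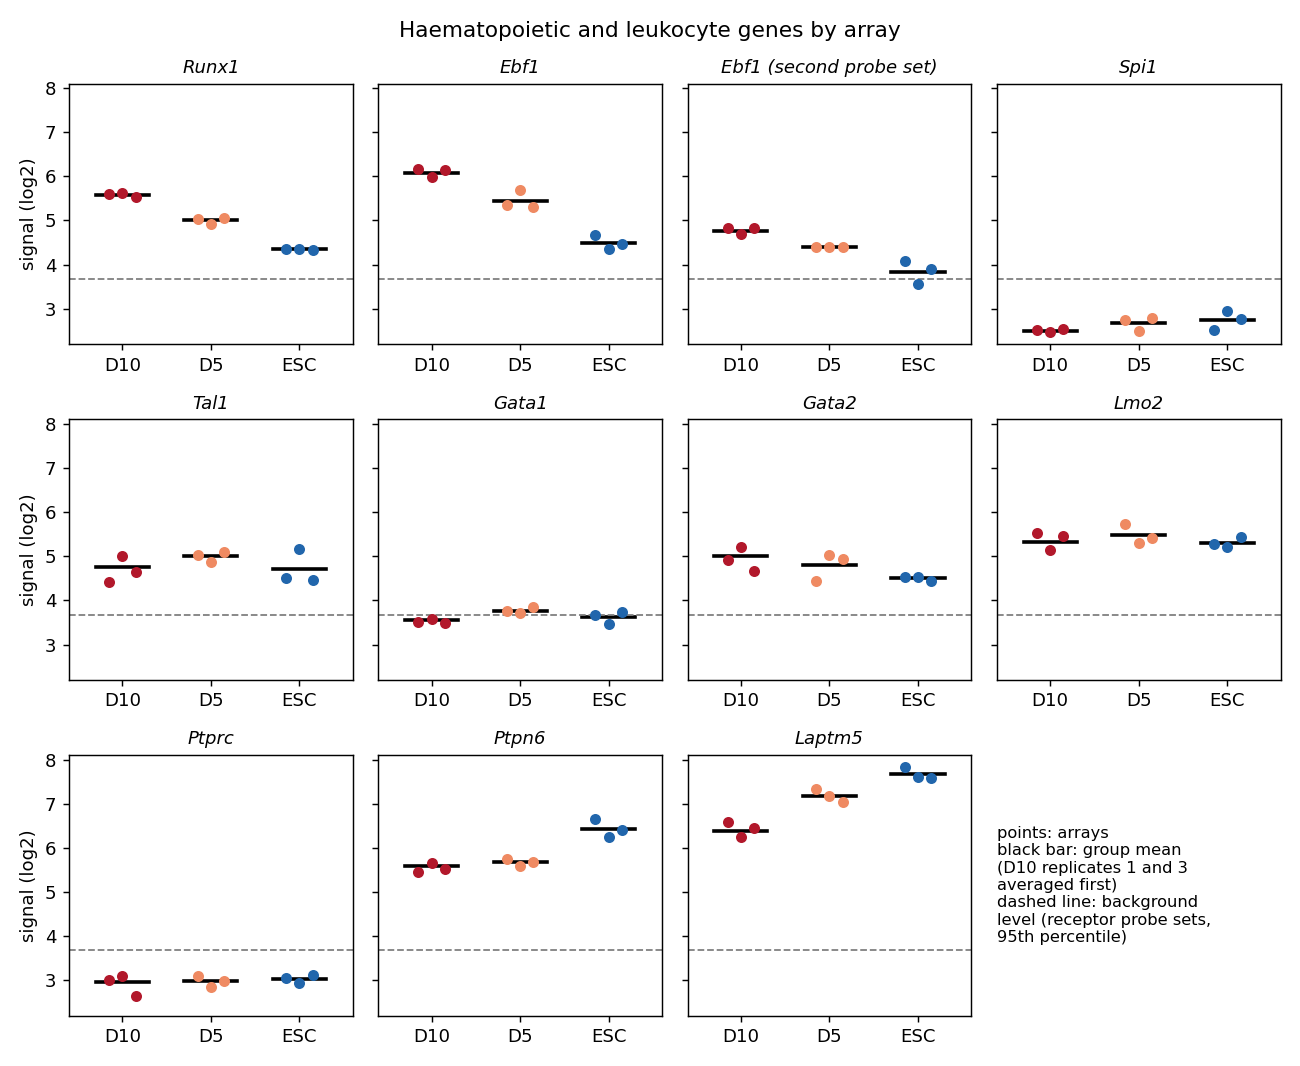
Signal (log2) of each of the 10 genes, with both probe sets of Ebf1, on every array of D10, D5 and ESC; points are arrays, black bars are group means and the dashed line is the background level of 3.68. Runx1 and both Ebf1 probe sets step down in the order D10, D5, ESC, Laptm5 steps up, Ptpn6 is lower in D10 and D5 than in ESC, and Spi1 and Ptprc lie under the line.

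The myeloid factor gene Spi1, on chromosome 2, stayed near the floor. It read 2.51, 2.47 and 2.54 in D10, 2.75, 2.50 and 2.80 in D5, and 2.51, 2.96 and 2.77 in ESC, and 79.5% of the receptor probe sets were dimmer. The groups overlapped. D10 minus ESC was -0.25 (95% interval -0.58 to 0.09, limma adjusted p = 0.396), and D5 minus ESC was -0.06 (-0.36 to 0.24, limma adjusted p = 0.880).

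Tal1, the basic helix-loop-helix factor at the head of blood formation, lies on chromosome 4. Its signals were 4.41, 5.00 and 4.64 in D10, 5.02, 4.88 and 5.10 in D5, and 4.51, 5.16 and 4.47 in ESC. They overlapped between all groups. D10 minus ESC was 0.04 (95% interval -0.46 to 0.55, limma adjusted p = 0.949) and D5 minus ESC was 0.28 (-0.16 to 0.73, limma adjusted p = 0.549).

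Gata1, the X-linked erythroid and megakaryocytic factor gene, read 3.51, 3.59 and 3.50 in D10, 3.76, 3.71 and 3.84 in D5, and 3.68, 3.46 and 3.74 in ESC. Its mean exceeded 94.8% of the receptor probe sets. Against ESC, D10 differed by -0.07 (95% interval -0.32 to 0.17, limma adjusted p = 0.780) and D5 by 0.15 (-0.07 to 0.37, limma adjusted p = 0.517). All D10 arrays lay below all D5 arrays, but this difference of -0.22 was not called (limma adjusted p = 0.565).

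Gata2, on chromosome 6, serves blood stem and progenitor cells. Its signals were 4.92, 5.21 and 4.67 in D10, 4.43, 5.04 and 4.94 in D5, and 4.52, 4.54 and 4.44 in ESC. The D10 arrays lay above the ESC arrays, and the D5 arrays overlapped both. D10 minus ESC was 0.51 with a 95% interval of 0.08 to 0.93 for this gene alone, and the difference did not pass the test over all probe sets (limma adjusted p = 0.159) or under any of 18 alternatives (lowest 0.0702). D5 minus ESC was 0.30 (limma adjusted p = 0.434).

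Lmo2, whose LIM-only protein bridges Tal1 and the GATA factors, is on chromosome 2. It read 5.52, 5.14 and 5.46 in D10, 5.72, 5.30 and 5.42 in D5, and 5.27, 5.20 and 5.44 in ESC. The groups overlapped. D10 minus ESC was 0.01 (95% interval -0.34 to 0.37, limma adjusted p = 0.981) and D5 minus ESC was 0.18 (-0.14 to 0.49, limma adjusted p = 0.615).

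Ptprc, on chromosome 1, is the broadest leukocyte marker of the group. Its signals were 3.02, 3.09 and 2.64 in D10, 3.11, 2.85 and 2.98 in D5, and 3.05, 2.95 and 3.12 in ESC, below background on every array. D10 minus ESC was -0.08 (95% interval -0.35 to 0.19, limma adjusted p = 0.783). D5 minus ESC was -0.06 (-0.30 to 0.18, limma adjusted p = 0.851). A gain of CD45 message beyond 0.19 on the log2 scale in D10 or 0.18 in D5 lies outside these intervals, and below background a probe set may understate a change.

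Ptpn6, on chromosome 6, was lower in both re-derived lines. It read 5.46, 5.67 and 5.52 in D10, 5.76, 5.60 and 5.69 in D5, and 6.65, 6.24 and 6.40 in ESC. Every D10 and D5 array lay under every ESC array, and D10 and D5 overlapped. Means were 5.58 ± 0.13 in D10 (SD, n = 2), 5.68 ± 0.08 in D5 and 6.43 ± 0.21 in ESC (SD, n = 3 each). Ptpn6 fell by 0.85 in D10 against ESC, 1.80-fold lower (SE 0.13, limma adjusted p = 0.00558). In D5 it fell by 0.75 against ESC, 1.68-fold lower (SE 0.12, limma adjusted p = 0.0120). The D5 call was lost without ESC replicate 3 (limma adjusted p = 0.0526) and without D5 replicate 2 (0.0506). D10 minus D5 was -0.10 (limma adjusted p = 0.884).

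Laptm5, on chromosome 4, ran opposite to Runx1. Its signals were 6.58, 6.24 and 6.46 in D10, 7.34, 7.17 and 7.04 in D5, and 7.83, 7.60 and 7.58 in ESC. All D10 arrays lay below all D5 arrays, which lay below all ESC arrays. The mean was 6.38 ± 0.20 in D10 (SD, n = 2), 7.18 ± 0.15 in D5 and 7.67 ± 0.14 in ESC (SD, n = 3 each). Laptm5 fell by 1.29 in D10 against ESC, 2.45-fold lower (SE 0.14, limma adjusted p = 7.34e-04). D5 minus ESC was -0.49 (SE 0.12, limma adjusted p = 0.0673) and D10 minus D5 was -0.81 (SE 0.14, limma adjusted p = 0.0601). Neither of these passed the test, though each passed in 5 of 18 alternatives.

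**Figure D2:**
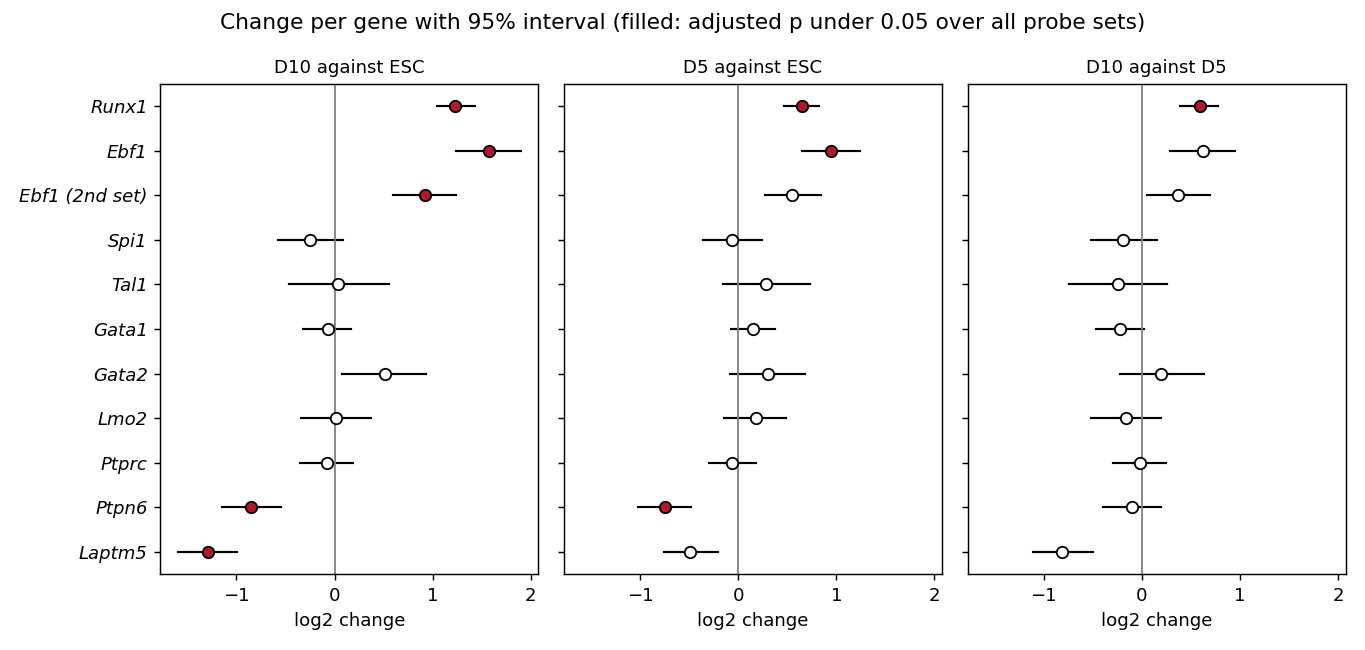
Log2 change of each of the 10 genes in D10 against ESC, D5 against ESC and D10 against D5, with 95% intervals of the limma fit; filled points passed the adjusted test. Points of Runx1 and Ebf1 lie to the right of 0 and those of Ptpn6 and Laptm5 to the left. The intervals of Spi1, Tal1, Gata1, Lmo2 and Ptprc cross 0 in every comparison. That of Ptpn6 crosses 0 in D10 against D5, and that of Gata2 in D5 against ESC and in D10 against D5.

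Counted together, 4 of the 10 genes passed the test in D10 against ESC (Runx1 and Ebf1 higher, Ptpn6 and Laptm5 lower), where 8.65% of all probe sets did (5.32% higher, 3.33% lower). In D5 against ESC 3 of 10 passed (Runx1 and Ebf1 higher, Ptpn6 lower), against 3.87% of all probe sets (2.36% higher, 1.50% lower). In D10 against D5 1 of 10 passed (Runx1, higher), against 0.215% of probe sets (0.194% higher, 0.0208% lower). Arrays that did not overlap were seen in D10 against ESC for 3 genes higher and 2 lower, an outcome met by 14.9% and 16.4% of all probe sets. In D5 against ESC it was 2 higher and 2 lower, against 10.7% and 11.0%, and in D10 against D5 2 higher and 2 lower, against 9.87% and 8.84%. Both comparisons with ESC share the ESC arrays, and since the changes were known when the list was made, nothing is read from these shares. The median change of the 10 genes was -0.03 in D10 against ESC and 0.16 in D5 against ESC, beside -0.02 and -0.01 over all probe sets. All arrays ran D10 above D5 above ESC for Runx1 and Ebf1, an order seen in 3.32% of probe sets, and in the opposite order for Laptm5, seen in 1.65%. The authors' deposited table of 461 selected probe sets holds Runx1, with a D10 over ESC ratio of 2.33, and Ebf1, with 3.02. Of the other 8 genes it lists none.

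Relatives of the 10 genes were then read, a set chosen after their values were seen. Runx2, a bone-forming runt factor, rose by 0.71 in D10 against ESC (limma adjusted p = 0.0112), and the shared partner Cbfb rose by 0.34 (limma adjusted p = 0.0432). Runx2 had 5.33, 5.08 and 5.39 on the D10 arrays, 4.57, 4.67 and 4.58 on the D5 arrays, and 4.33, 4.67 and 4.54 on the ESC arrays. Its D5 and ESC arrays overlapped and its D10 arrays lay above both. Runx3 differed by 0.04, which was not called (limma adjusted p = 0.923). Among the EBF genes, Ebf3 rose by 0.57 in D10 against ESC (limma adjusted p = 0.0183), Ebf2 rose by 0.42 with a mean of 3.67, just under background (limma adjusted p = 0.0247), and Ebf4 did not pass. Gata3, a T lymphoid and sympathetic nerve factor gene, rose by 0.84 (limma adjusted p = 0.0181), and Gata6, an endoderm and heart factor gene, rose by 0.65 (limma adjusted p = 0.0261). Lmo4, a broadly expressed LIM-only gene, rose by 0.99 in D10 (limma adjusted p = 0.00275) and by 0.72 in D5 (limma adjusted p = 0.0157) against ESC. Gata4, Gata5, Tal2, Lyl1, Lmo1, Lmo3, Spib and Spic did not pass in D10 against ESC. Ptpn11 (SHP-2), the broadly expressed sister of Ptpn6, had a change of 0.18 (limma adjusted p = 0.328). Laptm4a and Laptm4b, the lysosomal relatives of Laptm5, had changes of 0.31 (limma adjusted p = 0.0798) and -0.16 (limma adjusted p = 0.441).

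**Figure D3:**
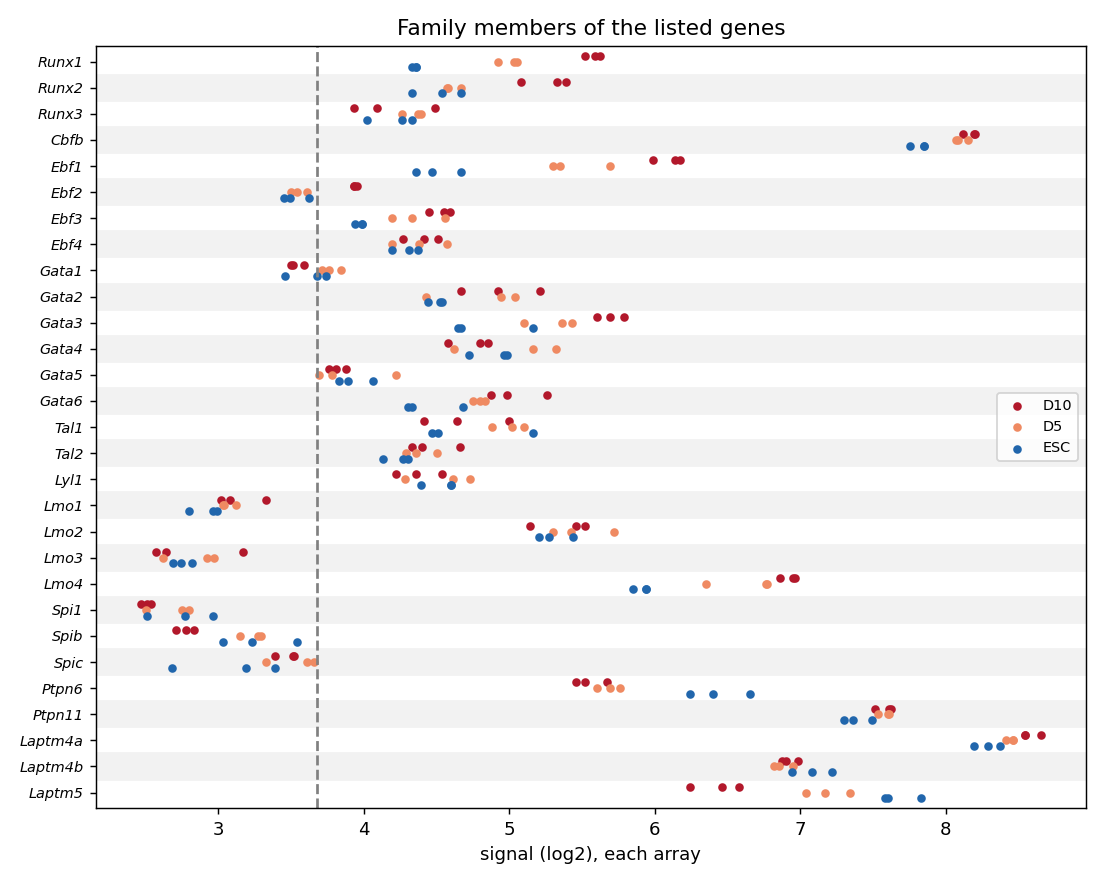
Signal (log2) of the 10 genes and their family members on each array, with D10 above D5 above ESC within a row; the dashed line is the background level of 3.68. Runx1, Ebf1 and Lmo4 are highest in D10, Ptpn6 and Laptm5 highest in ESC, and the points of Laptm4a and Laptm4b lie closer together than those of Laptm5.

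A list of blood regulators outside the 10 genes was read next, and it shares genes with the relatives above. Those called in D10 were higher than in ESC, and most were not called. Of 41 haematopoietic transcription regulators, 11 rose and 0 fell in D10 against ESC by limma's adjusted p (16 and 4 at an unadjusted p under 0.05). Runx2, Cbfb, Ebf2, Ebf3 and Gata3, already given as relatives, are among the 11. Over all probe sets 5.32% rose and 3.33% fell in D10. In D5 against ESC 3 of the 41 rose and 0 fell (10 and 1 unadjusted), where 2.36% of probe sets rose and 1.50% fell. The median of the 41 was 0.04 in D10 and 0.07 in D5 against ESC, so the middle of the list hardly moved. The count in D10 fell to 4 without D10 replicate 2, to 6, 6 and 7 without ESC replicates 1, 2 and 3, and to 5 with only the arrays compared. That in D5 fell to 1 without ESC replicate 3, D5 replicate 2 or D5 replicate 3, and was 6 with quantile normalization and 6 with the 9 arrays counted separately. The count of fallers in D10 was 1 without ESC replicate 3 or D5 replicate 2, and 4 with the 9 arrays counted separately. Id3, an inhibitor of basic helix-loop-helix factors, rose by 1.15 in D10 (limma adjusted p = 0.00185) and by 0.61 in D5 (limma adjusted p = 0.0398). Mecom (Evi1), a blood stem cell factor, rose by 1.15 in D10 (limma adjusted p = 0.00122) and by 0.91 in D5 (limma adjusted p = 0.00537). Meis1, a homeodomain factor of blood stem cells and other tissues, rose by 0.92 in D10 (limma adjusted p = 0.00250) and by 0.66 in D5 (limma adjusted p = 0.0147). Several of these genes are also used outside blood.

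Few leukocyte signalling and surface genes were called. Of 44 genes, 21 were above background, and in D10 against ESC 3 rose and 2 fell, beside 5.32% and 3.33% of all probe sets. Laptm4a, Laptm4b and Ptpn11, already given as relatives, are among the 21 and were not called. In D5 against ESC 0 rose and 2 fell by limma's adjusted p (2 and 4 at an unadjusted p under 0.05), beside 2.36% and 1.50% of all probe sets. Nothing is read from these counts about the list. Arhgdib, a gene abundant in leukocytes, rose by 0.97 in D10 (limma adjusted p = 0.0168), and the kinase gene Lyn rose by 0.83 (limma adjusted p = 0.0356). The risers in D10 numbered 1 without ESC replicate 3 or D10 replicate 2, and the fallers 1 without D10 replicate 2. In D5 the fallers numbered 1 without ESC replicate 2 or 3 or D5 replicate 1 or 3. Cd68, a lysosomal protein of macrophages, fell by 0.73 in D10 (limma adjusted p = 0.00520) and by 0.59 in D5 (limma adjusted p = 0.0166). Inpp5d (SHIP-1), a lipid phosphatase that like Ptpn6 damps leukocyte signalling, fell by 0.68 in D10 (limma adjusted p = 0.00881) and by 0.68 in D5 (limma adjusted p = 0.0106).

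Among transcripts that fill marrow cells, no rise was called in the lines. Of 20 abundant granulocyte and monocyte transcripts, 4 were above background. By limma's adjusted p 0 rose in D10 or in D5 against ESC (0 and 1 at an unadjusted p under 0.05). Over all probe sets 5.32% rose in D10 and 2.36% in D5. In each line 2 of the 20 fell, beside 3.33% of all probe sets in D10 and 1.50% in D5. The summed signal of the 20 was 168 to 180 on the D10 arrays, 173 to 186 on the D5 arrays and 193 to 229 on the ESC arrays. S100a8, among the most abundant messages of neutrophils, averaged 1.81 in D10, 1.90 in D5 and 2.17 in ESC. The neutrophil granule gene Mpo averaged 3.33 in D10, 3.42 in D5 and 3.27 in ESC, and the lysozyme gene Lyz2 averaged 2.15 in D10, 2.44 in D5 and 2.15 in ESC. These genes, with S100a9 and Elane, lay below background in each group and were singled out after their values were seen. Prtn3 (3.82), Camp (3.89), Cd177 (4.22) and Mmp9 (4.93) of the same list lay above background in their mean over the 9 arrays. Of these, Prtn3, Camp and Cd177 were not called in D10 or D5 against ESC. The genes that fell were the gelatinase gene Mmp9, by 0.80 in D10 and 0.79 in D5 (limma adjusted p = 0.00846 and 0.0105), and Lcn2, by 0.62 in D10 and 0.80 in D5 (limma adjusted p = 0.0337 and 0.0133). Lcn2 had a mean of 3.33, under background. The fallers in D10 numbered 0 without D10 replicate 2 and 1 without ESC replicate 2 or 3 or D5 replicate 1. In D5 they numbered 1 without ESC replicate 2 or 3, and 1 gene was called higher without D5 replicate 2.

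Other blood lineages gave few calls. Over all probe sets 5.32% rose and 3.33% fell in D10 against ESC, and 2.36% rose and 1.50% fell in D5 against ESC. Nothing is read about the lineages from the counts of such short lists. The globin gene Hba-a1 averaged 4.63 in D10, 4.36 in D5 and 4.53 in ESC and was not called in D10 (limma adjusted p = 0.890) or D5 (limma adjusted p = 0.794). Of 9 measured megakaryocyte genes 1 rose in D10 and 0 in D5 against ESC (limma, 1 and 0 at an unadjusted p under 0.05). That gene was the platelet chemokine gene Ppbp, by 0.73 in D10 (limma adjusted p = 0.00629), with means of 4.02 in D10, 3.40 in D5 and 3.29 in ESC. Its mean over the 9 arrays was 3.58, under background. The platelet chemokine gene Pf4 averaged 3.13 in D10, 3.13 in D5 and 3.31 in ESC, below background. Of the 9 megakaryocyte genes, 6 were above background in their mean over the 9 arrays. Of 21 B and T lymphocyte genes 0 rose in D10 or D5 (limma, 0 in each also at an unadjusted p under 0.05) and 1 fell. Lck, a kinase of T cells, fell by 1.09 in D10 (limma adjusted p = 4.12e-04) and fell in D5 as well (limma adjusted p = 8.05e-04), with means of 4.96 in D10, 5.05 in D5 and 6.05 in ESC.

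**Figure D4:**
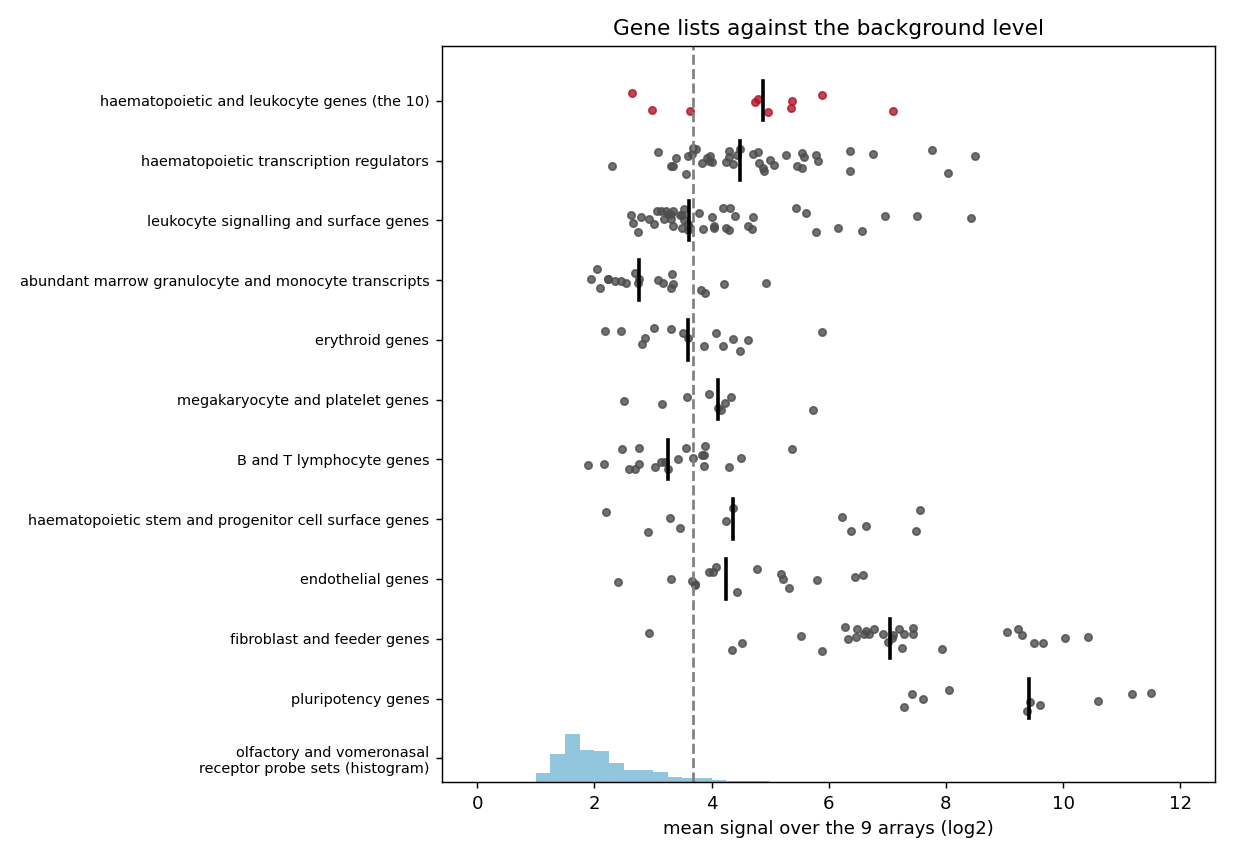
Mean signal (log2) over the 9 arrays of each gene of the 10 and of each list; points are genes, black ticks are medians, the dashed line is the background level of 3.68 and the histogram at the bottom shows the receptor probe sets it comes from. Most granulocyte and lymphocyte genes lie left of the line, as do Spi1, Gata1 and Ptprc, while 29 of 30 fibroblast and all 10 pluripotency genes lie right of it.

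Some surface genes of blood stem and progenitor cells were called. Of 11, 4 rose, 1 fell and 6 were not called in D10 against ESC, beside 5.32% higher and 3.33% lower over all probe sets. In D5 against ESC 3 rose, 1 fell and 7 were not called, beside 2.36% and 1.50%. Ly6a (Sca-1) rose by 2.66 in D10 (limma adjusted p = 5.79e-04) and by 1.40 in D5 (limma adjusted p = 0.0147). Its signals were 8.83, 8.75 and 8.85 on the D10 arrays, 7.24, 7.59 and 7.76 on the D5 arrays, and 6.33, 6.49 and 5.57 on the ESC arrays. Thy1, carried by fibroblasts as well as stem cells and T cells, rose by 1.99 in D10 (limma adjusted p = 3.37e-05) and by 1.28 in D5 (limma adjusted p = 3.02e-04), and was higher in D10 than in D5 by 0.71 (limma adjusted p = 0.0457). Cd34 rose by 1.10 in D10 (limma adjusted p = 8.93e-04) and by 0.69 in D5 (limma adjusted p = 0.0111), and Prom1 rose by 0.63 in D10 (limma adjusted p = 0.00990). Epcam, an epithelial adhesion gene that ESCs also carry, fell by 0.48 in D10 (limma adjusted p = 0.0388) and by 0.52 in D5 (limma adjusted p = 0.0332). The Epcam call was lost in both lines without ESC replicate 1, 2 or 3, D5 replicate 2 or D10 replicate 2, in D10 also without D10 replicate 3 and in D5 also without D5 replicate 3. The Thy1 call in D10 against D5 held on leaving out D10 replicate 3 and was lost without each of the other 8 arrays. Kit, the stem cell factor receptor gene, averaged 6.47 in D10, 6.17 in D5 and 6.48 in ESC and did not pass in D10 (limma adjusted p = 0.973) or D5 (limma adjusted p = 0.221). Ly6a, Thy1 and Cd34 are also carried by fibroblasts, and Thy1 is counted in the fibroblast list below as well.

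Fibroblast genes moved with Runx1 and Ebf1. Of 30 fibroblast and feeder genes, 29 were above background. In D10 against ESC 28 rose, where 5.32% of all probe sets rose. In D5 against ESC 21 rose, where 2.36% of all probe sets rose. In D10 against D5 7 were higher, beside 0.194% of all probe sets. In each comparison 0 of the 30 were lower (limma, 0 also at an unadjusted p under 0.05). The 7 higher in D10 than in D5 became 0 without D5 replicate 1 or 3 or D10 replicate 2, 1 to 3 without each other array except D10 replicate 3, and 17 with the 9 arrays counted separately. The list's median change was 1.30 in D10 against ESC, 0.75 in D5 against ESC and 0.55 in D10 against D5. Their summed signal was 12075 to 12488 on the D10 arrays, 8351 to 9226 on the D5 arrays and 5037 to 5765 on the ESC arrays, in the same order as Runx1 and Ebf1. The matrix gene Thbs1 rose by 1.92 in D10 (limma adjusted p = 1.74e-04) and the collagen gene Col3a1 by 1.66 (limma adjusted p = 5.25e-05). Postn rose by 1.75 and Col6a3 by 1.69 in D10, and Acta2 rose by 1.17 in D5 (limma adjusted p = 8.65e-04). Centred on its own mean, the list's median gene stood at 0.72, 0.60 and 0.67 on the D10 arrays, 0.01, 0.05 and 0.14 on the D5 arrays, and -0.68, -0.60 and -0.75 on the ESC arrays. Runx1 centred in the same way stood at 0.61, 0.64 and 0.54 in D10, 0.06, -0.06 and 0.07 in D5, and -0.61, -0.61 and -0.65 in ESC. The part of fibroblast or feeder RNA in the rise of Runx1, Ebf1, Ly6a, Thy1 and Cd34 was not tested. Against ESC the pluripotency genes ran the other way. Their median change against ESC was -0.28 in D10 and -0.27 in D5. In D10 against D5 0 of the 10 were called, beside 0.215% of all probe sets. In D10 against ESC 4 of 10 were lower, beside 3.33% of all probe sets. In D5 against ESC 5 of 10 were lower, beside 1.50% of all probe sets. Of the 10 genes, Fgf4, a growth factor gene of ESCs, fell by 0.81 in D10 (limma adjusted p = 0.00805) and by 0.65 in D5 (limma adjusted p = 0.0241). Tdgf1, Dppa5a and Sox2 fell in both lines, by 0.71, 0.47 and 0.43 in D10, and Nanog fell in D5 by 0.43 (limma adjusted p = 0.0156). The fallers in D10 numbered 2 without D10 replicate 2, and those in D5 numbered 0 without ESC replicate 1 and 1 to 3 without ESC replicate 2 or 3, any D5 replicate or D10 replicate 2. The part of this list in the lower Ptpn6 and Laptm5 was not tested either.

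**Figure D5:**
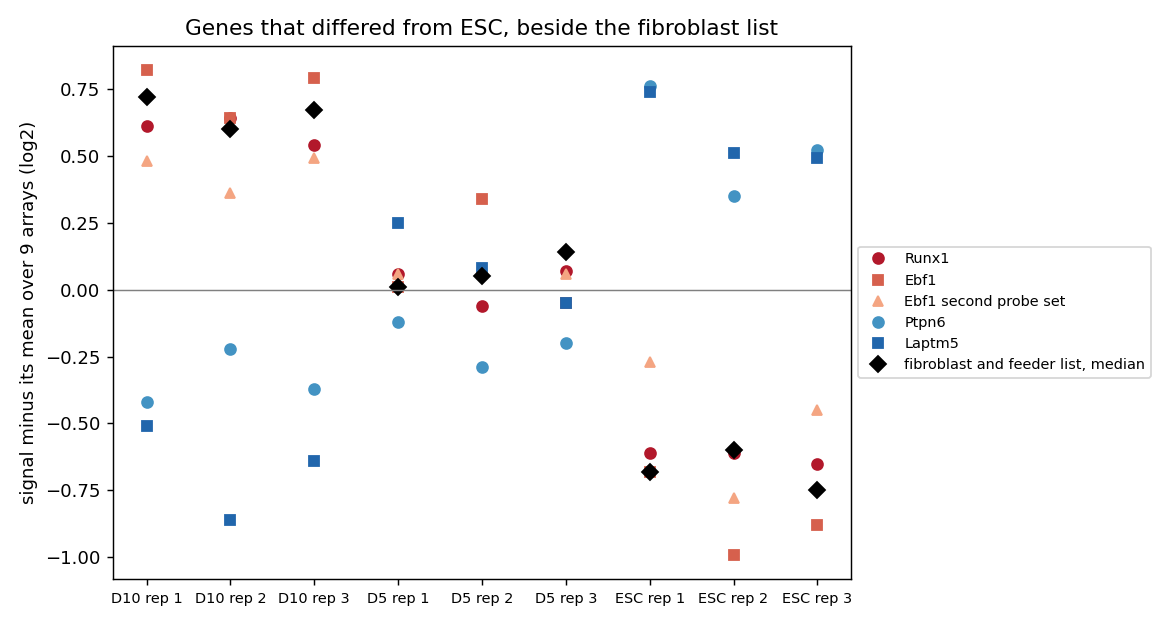
Signal minus its mean over the 9 arrays (log2) for Runx1, both Ebf1 probe sets, Ptpn6 and Laptm5, with the median of the fibroblast and feeder list as diamonds, on each array. The diamonds lie at 0.60 to 0.72 in D10, 0.01 to 0.14 in D5 and -0.75 to -0.60 in ESC, next to Runx1, while Laptm5 is lowest in D10 and highest in ESC, and Ptpn6 is lower in D10 and D5, which overlap, than in ESC.

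The genes most like each changed gene were found among 20608 genes by the root-mean-square difference of centred log2 values over the 9 arrays. The nearest to Runx1 were Lmna (0.0523), Arhgap24 (0.0606), Angptl2 (0.0653), Tinagl1 (0.0694) and Cdk14 (0.0718). The nearest to Ebf1 were Ehd2 (0.0710), Mrc2 (0.0738), Cped1 (0.0989), Slc14a1 (0.107) and Slc25a24 (0.110). Ptpn6 was followed by Afg1l (0.0965), Accsl (0.0990), Ankrd37 (0.101), Kndc1 (0.111) and Kirrel2 (0.114). Laptm5 had no gene as near, with Dnajc6 (0.161), Ccdc77 (0.177), Cobl (0.184), Upp1 (0.191) and Acer2 (0.192). None of these 20 genes is on any of the 10 lists used here, the fibroblast list included. The lists hold only 221 entries, with Thy1 on both the stem cell surface list and the fibroblast list. Absence from them does not tell which cells use a gene. These likenesses describe 9 arrays in 3 groups and carry no test.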

How the data were processed

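Total RNA was measured on 9 Affymetrix whole-transcript arrays, 3 each for D10, D5 and ESC. The submitters' processing notes name MAS5. Normalization between arrays was not given in the sources used here. Values were deposited as log2 signals, as 2 to their power gives the linear intensity means of the authors' short table to within rounding. They ran between 0.70 and 13.82, with array medians of 4.45 to 4.53. The authors' tables also hold a p-value and a ratio (fold) per comparison, which were only copied. Arrays have no read depth, and their number limits the precision.

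Probe sets were named through the mouse GRCm38.p6 RefSeq gene table by accession (18873), symbol (2487) or older symbol (1740). The file's name was kept for 2023, and 3730 stayed unnamed. D10 replicates 1 and 3 were averaged. limma 3.58.1 in R 4.3.3 (lmFit, eBayes) fitted a mean per group to 8 samples for all 28853 probe sets, with two-sided tests, Benjamini-Hochberg adjustment over each comparison and a threshold of 0.05. The fit was tested on simulated data. The 10 genes, the 10 marker lists and the tests were chosen with earlier results of these data known. List genes named are up to 4 with the largest called change in D10 against ESC and up to 2 more in D5 against ESC. Marker genes singled out below background, Prtn3, Camp, Cd177, Hba-a1, Pf4, Kit and the family members were added after their values were seen. Some list genes, and the count of the erythroid list, are not reported here. Same-numbered arrays of different groups had deviations from their group means that correlated at -0.38 to 0.30. Differently numbered arrays were not compared, so whether the numbers pair the samples was not settled. The main fit did not pair them. Alternatives were array weights, quantile normalization, an intensity trend (robust), median centring, dropping the dimmest 30% of probe sets, using only the arrays compared, the replicate block, 9 arrays counted separately, gene means and leaving out each array.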

Additional observations from a re-analysis of the deposited data

Results flagged for a closer look

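Runx1 differed between the re-derived lines themselves, by 0.59 on the log2 scale (D10 minus D5, limma adjusted p = 0.0466), on top of its difference from ESC in each line. All 3 D10 arrays lay above all 3 D5 arrays. The call held in 6 of 18 alternatives.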

How the results depend on the processing

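The counts of the 10 genes that passed against ESC, 4 in D10 and 3 in D5, stayed within 1.5 times under all 18 alternatives, and no called change was reversed. In D10 against D5 the count was 1. It was 2 with quantile normalization, with the lowest 30% of probe sets left out and with an intensity trend and robust estimation, and 3 with the 9 arrays counted separately. It was 0 with median centring, with only the arrays compared, with array weights and with gene means, and 0 to 1 on leaving out 1 array at a time. With the replicate number as a block the count was 2 in D10 against D5, 4 in D10 against ESC and 4 in D5 against ESC. Whether the replicate numbers pair the samples was not settled. The cause of these shifts was not tested.

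Over all probe sets, calls numbered 2496 in D10 against ESC (1188 to 3977 under the alternatives), 1116 in D5 against ESC (457 to 1695) and 62 in D10 against D5 (2 to 517). With the 90th percentile of the receptor probe sets as background, or with vomeronasal receptors alone, 8 of the 10 genes were above it, and with the 99th percentile 7. Genes below background, among them Ptprc and Spi1, can hide changes.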

Other observations

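Endothelial genes, which share a developmental source with blood, gave calls in both directions. Of 16 measured, 13 were above background, and in D10 against ESC 3 rose and 2 fell, while in D5 against ESC 0 rose and 1 fell by limma's adjusted p (5 and 2 at an unadjusted p under 0.05). Over all probe sets 5.32% rose and 3.33% fell in D10, and 2.36% rose and 1.50% fell in D5. The vascular growth factor receptor gene Flt1 rose by 0.62 in D10 (limma adjusted p = 0.00952), and Kdr rose by 0.62 (limma adjusted p = 0.0165), with means of 3.99 in D10, 3.81 in D5 and 3.37 in ESC. Cdh5, the endothelial cadherin gene, rose by 0.52 in D10 (limma adjusted p = 0.0243), with a mean of 3.66, just under background. Tek, the angiopoietin receptor gene, fell by 1.08 in D10 (limma adjusted p = 0.00451) and by 0.96 in D5 (limma adjusted p = 0.00952). The risers numbered 1 without ESC replicate 1, ESC replicate 2 or D10 replicate 2, and the fallers 0 without D10 replicate 2 and 1 without ESC replicate 1 or 3. In D5 the risers numbered 1 without D5 replicate 1 or 3. They also numbered 1 with quantile normalization, median centring, array weights or gene means. The same held with an intensity trend (robust) or with the dimmest 30% of probe sets dropped. With the 9 arrays counted separately they numbered 2. Of the 16, Flt1, Kdr, Cdh5 and Tek are named as the 4 with the largest called change in D10.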
